A study of Homo sapiens with 72 samples.

Results

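The genes described here mark precursor B cells: VPREB1 and IGLL1, which encode the surrogate light chain, the related VPREB3, the recombination genes RAG1, RAG2 and DNTT, and the genes of the surface proteins MME (CD10) and CD34. They were chosen by name, with no measured value in the rule, and make up 8 of the 20007 protein-coding genes of GENCODE release 44 on chromosomes 1 to 22, X and Y of the human genome build hg38. Cut&Tag, in which an antibody against a histone mark guides a transposase that tags the chromatin for sequencing, was run for H3K4me3, H3K4me2 and H3K27me3 in 3 established human B cell lines. Raji comes from a Burkitt lymphoma, and NALM6 and REH come from B-cell acute lymphoblastic leukaemias. Each line was left untreated or given 1 nM bryostatin, a macrolide that binds and modulates protein kinase C, overnight by the labels and for a full day by the study's methods, in 3 replicates per line, treatment and mark, for 54 libraries with peaks among 72 samples. The other 18 samples are not used here. The labels do not say whether replicates were separate cultures, so p-values measure the spread between libraries that may be technical, and each line is 1 model, so a difference between lines is not a difference between diseases. The series' design text names H3K27me2 where the sample labels name H3K27me3, and the sample labels were followed.

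In a B cell progenitor the pre-B cell receptor pairs a rearranged heavy chain with a surrogate light chain, made of the VpreB protein (VPREB1) and lambda 5 (IGLL1). RAG1 and RAG2 form the recombinase that cuts immunoglobulin gene segments, and the terminal transferase DNTT adds bases at the cut ends before they are joined. H3K4me3 marks active promoters, H3K4me2 marks promoters and enhancers, and H3K27me3 is laid down by Polycomb at silent genes.

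The windows tested for these marks lie around annotated gene starts. VPREB1 (chr22:22244780-22245515, plus strand), IGLL1 (chr22:23573125-23580302, minus strand) and VPREB3 (chr22:23752743-23754425, minus strand) lie on chromosome 22. RAG1 (chr11:36510372-36593156, plus strand) and RAG2 (chr11:36575574-36598279, minus strand) overlap on chromosome 11. DNTT (chr10:96304409-96338564, plus strand), MME (chr3:155024124-155183704, plus strand) and CD34 (chr1:207880972-207911402, minus strand) lie on 3 other chromosomes. The 250 bases before the RefSeq start are printed for VPREB1, IGLL1, VPREB3, RAG2 and DNTT, 5 of the members with a call between lines or treatments, 5′ to 3′ on the strand of the gene, from RefSeq on GRCh38.p14. They equal the hg38 sequence at the coordinates given. Capitals mark matches, on either strand, to the core EBF1 motif CCCNNGGG, to the E-box CAGGTG bound by E2A proteins and to the Ikaros motif TGGGAA.
VPREB1, chr22:22244536-22244785, plus strand: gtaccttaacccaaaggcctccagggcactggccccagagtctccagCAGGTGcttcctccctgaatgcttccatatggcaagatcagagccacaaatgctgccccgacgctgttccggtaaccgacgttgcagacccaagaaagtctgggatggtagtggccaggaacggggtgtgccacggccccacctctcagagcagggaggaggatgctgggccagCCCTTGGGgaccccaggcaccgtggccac
IGLL1, chr22:23580291-23580540, minus strand: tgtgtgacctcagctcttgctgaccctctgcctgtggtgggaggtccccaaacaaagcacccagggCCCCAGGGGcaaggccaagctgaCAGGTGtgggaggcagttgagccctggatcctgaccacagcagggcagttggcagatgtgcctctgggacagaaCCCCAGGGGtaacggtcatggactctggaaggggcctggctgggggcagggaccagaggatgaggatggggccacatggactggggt
VPREB3, chr22:23754426-23754675, minus strand: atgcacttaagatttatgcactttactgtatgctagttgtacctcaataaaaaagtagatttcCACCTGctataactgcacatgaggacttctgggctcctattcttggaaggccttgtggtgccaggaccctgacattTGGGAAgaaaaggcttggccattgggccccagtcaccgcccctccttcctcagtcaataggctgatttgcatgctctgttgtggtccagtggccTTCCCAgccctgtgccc
RAG2, chr11:36598237-36598486, minus strand: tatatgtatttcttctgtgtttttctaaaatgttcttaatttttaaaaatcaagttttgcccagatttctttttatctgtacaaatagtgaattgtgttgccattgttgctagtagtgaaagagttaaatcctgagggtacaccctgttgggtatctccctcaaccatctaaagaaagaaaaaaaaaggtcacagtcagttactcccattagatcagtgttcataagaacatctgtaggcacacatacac
DNTT, chr10:96304184-96304433, plus strand: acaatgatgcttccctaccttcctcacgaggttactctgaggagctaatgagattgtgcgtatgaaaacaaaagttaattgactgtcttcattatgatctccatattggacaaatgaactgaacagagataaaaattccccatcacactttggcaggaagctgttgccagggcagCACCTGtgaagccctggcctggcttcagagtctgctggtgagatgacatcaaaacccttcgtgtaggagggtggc

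VPREB1 held 1 EBF1 core match, CCCTTGGG, beginning 29 bases before the start, and 1 E-box beginning 203 bases before it. IGLL1 held an E-box at 161 bases and 2 pairs of overlapping EBF1 core matches, at 184 and 183 bases and at 87 and 86 bases. VPREB3 held an E-box at 187 bases and 2 Ikaros matches at 111 and 17 bases, DNTT held an E-box at 75 bases, and RAG2 held none of the motifs. A longer EBF1 motif, the core with a T added before it and an A after it, was in none of the 5. Among 34943 windows of 250 bases before RefSeq starts, 17% held the EBF1 core, 17.5% the E-box, 20.9% the Ikaros motif and 1.06% the longer EBF1 motif. A match describes the letters and shows no binding. The 250 bases before the distal RefSeq start of RAG1 held 25 CpG dinucleotides, against 8 for VPREB1, 3 for DNTT, 1 each for IGLL1 and VPREB3, and 0 for RAG2.

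Peaks were the authors' SEACR calls, made library by library. The start signal used below is the summed signal of the peaks within 1 kb of any annotated start of a gene, divided by the library's median over the genes called in every library of the mark (4360 genes for H3K4me3 and 3572 for H3K4me2), so that 1 is a typical start. A value of 0 means that no peak was called there, which a weak mark would also give. For H3K4me3 the weakest peak of a library carried 0.0120 to 0.140 of this unit among Raji libraries, 0.0539 to 0.586 among those of NALM6 and 0.0495 to 0.389 among those of REH. For H3K4me2 it carried 0.0824 to 0.534 over all lines. Depth, recovered from the smallest RPKM step, was 5.12 to 47.9 M mapped reads per library, and 6 libraries, replicate 1 of NALM6 for each mark and treatment, carried another scaling and had no recoverable depth. Within 1 kb of a start, 26.0% to 53.9% of genes had an H3K4me3 peak in the NALM6 libraries, 42.3% to 58.3% in REH and 49.5% to 54.3% in Raji. The T cell markers CD3D, CD3E, CD3G, CD2 and CD7 had neither H3K4 mark in any library. Of 4 myeloid genes, REH had H3K4me2 start peaks in at least 3 libraries at 2 (CSF1R and MPO), in all 6 at 1, and CSF1R was called higher in REH than in Raji, while Raji and NALM6 had H3K4me2 in 3 or more libraries at none. No erythroid gene (GATA1, KLF1, HBB) had either H3K4 mark in 3 or more libraries of a line. Of 7 mature B markers, 7 had H3K4me3 in at least 3 Raji libraries, against 1 in NALM6 and 2 in REH.

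The H3K4 marks at the precursor B genes were not shared as a block by the leukaemia lines. IGLL1, RAG2 and DNTT had H3K4me3 start peaks in NALM6 and REH and in none of the 6 Raji libraries, VPREB1 in NALM6 only, and CD34 in no library. RAG1, VPREB3 and MME had start peaks in Raji too. The plot of start signal by line shows every library.

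**Figure D1:**
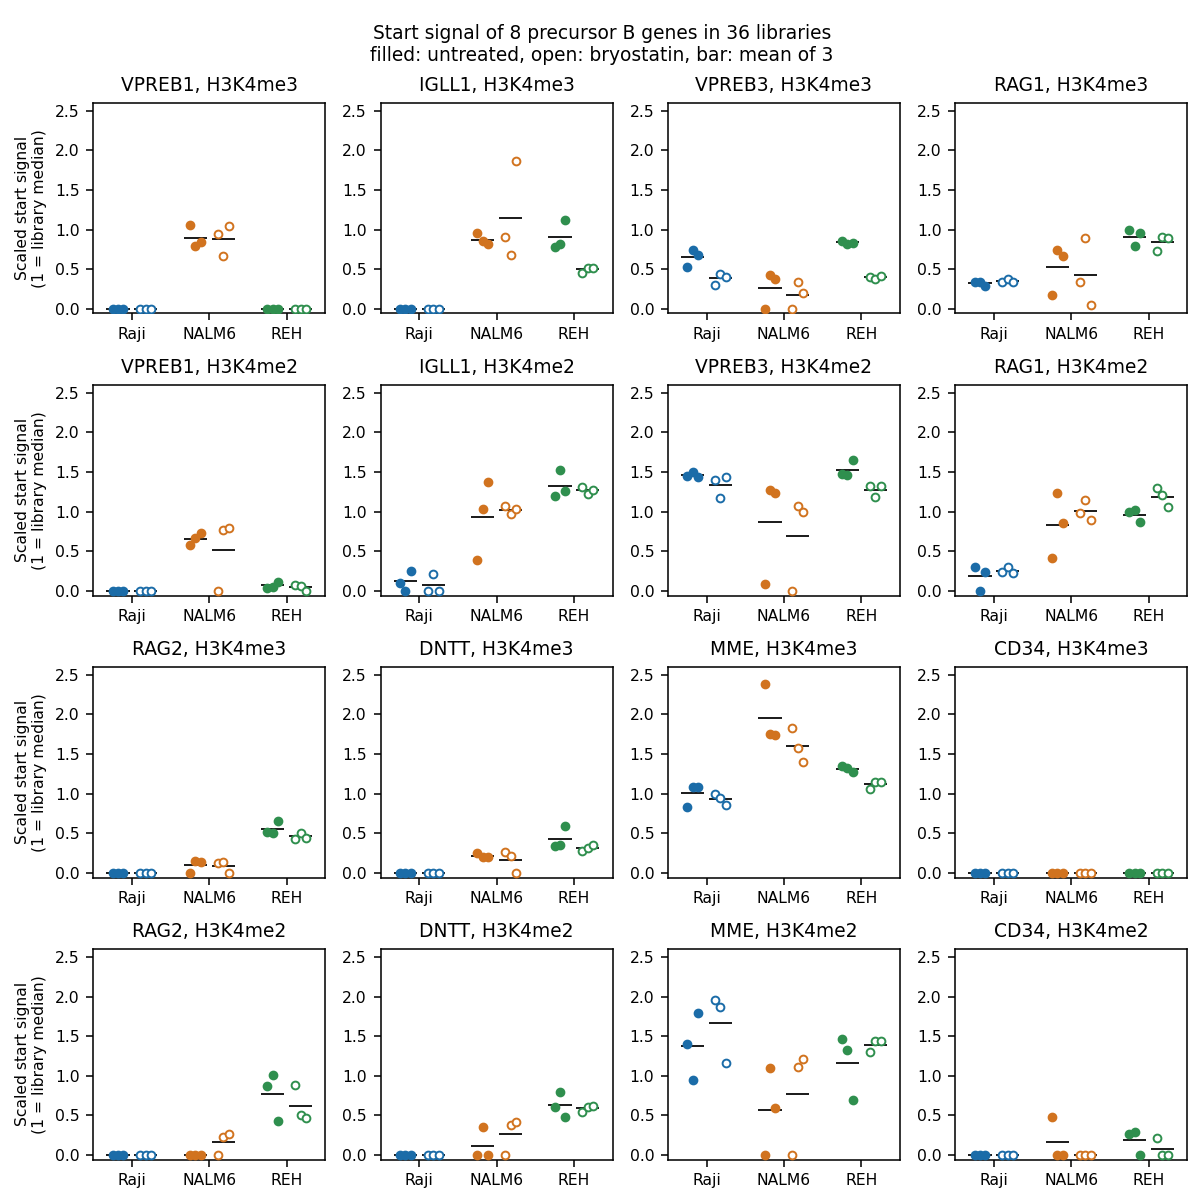
Scaled start signal of H3K4me3 and H3K4me2 at the 8 precursor B genes (y axis, 1 = the library's median start, no unit) by cell line (x axis), 1 point per library, filled for untreated and open for bryostatin, with a bar at the mean of 3. VPREB1 H3K4me3 lies above 0 in NALM6 only, and CD34 H3K4me3 lies at 0 in all 18 libraries.

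VPREB1, which encodes the VpreB chain, had H3K4me3 at its start in 6 of 6 NALM6 libraries and in 0 of 6 Raji and 0 of 6 REH libraries. The NALM6 values were 1.06, 0.791 and 0.841 untreated and 0.940, 0.662 and 1.05 with bryostatin. All lay near the level of a typical start, and the groups did not overlap. Of all genes, 0.175% had an H3K4me3 start peak in every NALM6 library and in no REH library, and 0.765% in every NALM6 and no Raji library. VPREB1 passed the filter of a peak in at least 3 of 18 libraries for H3K4me3 only through NALM6, so its limma p is not given as support. No fold is given either, since Raji and REH were listed at 0. The highest signal of the NALM6 peaks lay 9 to 370 bp from the VPREB1 start.

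H3K4me2 at VPREB1 was 0.579, 0.661 and 0.724 in untreated NALM6, 0, 0.762 and 0.798 in treated NALM6, and 0 in all 6 Raji libraries. REH had low values, 0.0412, 0.0497 and 0.109 untreated and 0.0753, 0.0625 and 0 with bryostatin. These REH peaks overlapped the start window by only 256 to 426 bp, and their highest signal lay 1239 to 4229 bp from the VPREB1 start (median 1874 bp). The NALM6 H3K4me2 peaks overlapped the window by 991 to 2007 bp. Their highest signal also lay mostly off the start, 173 to 1899 bp from it (median 1889 bp). VPREB1 H3K4me2 was higher in NALM6 than in Raji (limma, Benjamini-Hochberg adjusted p = 0.00244) and lower in REH than in NALM6 by a log2 difference of -2.20 (SE 0.60, adjusted p = 0.0177). That second call was lost without REH untreated replicate 1 (adjusted p = 0.0655) or replicate 2 (adjusted p = 0.0588), with the maximum signal (0.489) and over the gene body (0.230). Raji instead had an H3K4me2 region far upstream, at chr22:22195011-22199320, with its centre at -47615 bp from the VPREB1 start, in 6 of 6 libraries and in none of NALM6 or REH. H3K4me3 was called there too, in 5 of 6 Raji libraries. It was described without a test.

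IGLL1, which encodes lambda 5, had H3K4me3 in all 6 NALM6 and all 6 REH libraries and in none of Raji. Untreated NALM6 gave 0.953, 0.855 and 0.813, treated NALM6 0.906, 0.676 and 1.87, untreated REH 0.776, 0.820 and 1.12, and treated REH 0.456, 0.513 and 0.519. Both leukaemia lines stood apart from Raji in every library. The adjusted p was 2.58e-07 for REH against Raji and 4.23e-07 for NALM6 against Raji in limma with Benjamini-Hochberg adjustment, with Raji listed at 0. The fit shares its estimate of the spread over all groups of the mark, and Raji libraries at 0 add no spread to it. These p-values therefore do not measure a spread in Raji, and the same holds wherever a line was listed at 0. Of all genes, 2.41% had H3K4me3 in every REH and no Raji library.

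H3K4me2 at IGLL1 was weak but present in Raji, at 0.101, 0 and 0.253 untreated and 0, 0.209 and 0 with bryostatin. Untreated NALM6 gave 0.393, 1.04 and 1.37 and untreated REH 1.19, 1.53 and 1.26, with treated libraries of both lines between 0.972 and 1.31. Neither leukaemia line overlapped Raji. The log2 difference was 2.88 (SE 0.50, limma with Benjamini-Hochberg, adjusted p = 4.36e-04) for REH against Raji and 2.29 (SE 0.50, adjusted p = 0.00377) for NALM6 against Raji. The second call was lost in a fit of only the 6 libraries compared (adjusted p = 0.116). The H3K4me2 peaks over the IGLL1 start were 11500 to 12950 bp long in REH, 423 to 11680 bp in NALM6 and 1070 to 2980 bp in Raji. Their highest signal lay 3573 to 3703 bp from the start in REH, 14 to 3703 bp (median 3633 bp) in NALM6 and 69 to 163 bp in Raji. Since signal was spread evenly over a peak, the REH values and most NALM6 values are length shares of peaks with their top elsewhere. A second H3K4me2 region downstream of IGLL1, chr22:23563701-23568810, was called in 6 of 6 REH and 4 of 6 NALM6 libraries and in 0 of 6 of Raji.

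VPREB3, a protein that associates with the pre-B cell receptor during its assembly, differed from VPREB1 and IGLL1. All lines carried both H3K4 marks over its start, as they also did at RAG1 and MME. H3K4me3 was 0.529, 0.740 and 0.674 in untreated Raji, 0, 0.421 and 0.378 in untreated NALM6, and 0.861, 0.817 and 0.833 in untreated REH. The 2 NALM6 libraries at 0 over both treatments were the replicate 1 libraries with the other scaling. No line comparison of VPREB3 passed in limma with Benjamini-Hochberg adjustment: NALM6 minus Raji was -1.35 (SE 0.56, adjusted p = 0.119) and REH minus NALM6 1.68 (SE 0.56, adjusted p = 0.0911). H3K4me2 was high, between 1.18 and 1.65 in all Raji and REH libraries, and 0.0889, 1.28 and 1.24 in untreated NALM6.

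The peaks over the VPREB3 start did not have their top there. VPREB3 and ZNF70, a zinc finger gene on the same strand, have starts 3.313 kb apart, and each of the 16 H3K4me3 peaks over the VPREB3 window (6 in Raji, 4 in NALM6, 6 in REH) had its highest signal 3234 bp from the VPREB3 start, nearest the ZNF70 start. These peaks were between 3370 and 6150 bp long. Since a peak's signal was spread evenly over its length, a VPREB3 value is the length share of the whole peak that falls within 1 kb of the VPREB3 start, not signal measured at that start, and the map of peaks at VPREB3 shows both starts under the same peaks.

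**Figure D2:**
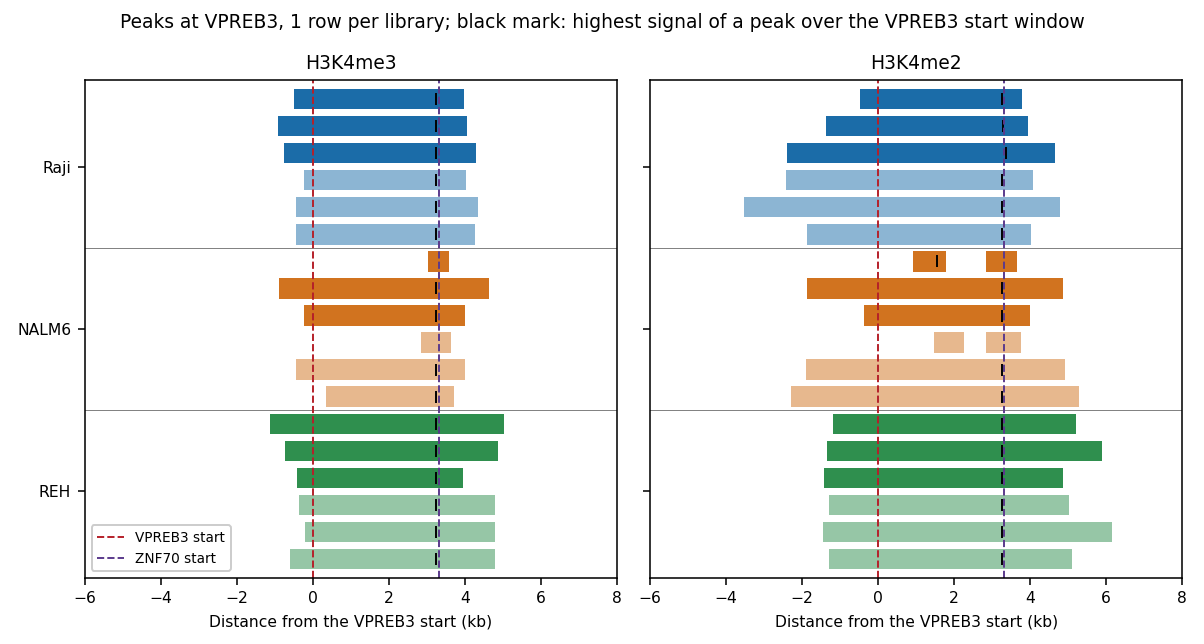
Peaks of H3K4me3 and H3K4me2 around VPREB3, 1 row per library grouped by line (y axis), by distance from the VPREB3 start in kb (x axis, positive in the direction of transcription). Full colour is untreated, pale is bryostatin, dashed lines are the VPREB3 and ZNF70 starts, and the black marks, the highest signal of each peak over the VPREB3 window, stand by the ZNF70 start in all 16 H3K4me3 peaks.

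H3K4me3 and H3K4me2 start peaks of RAG1 in Raji lay only at its distal annotated start, which it shares with TRAF6, a signalling adaptor gene whose own start is 100 bp away on the other strand. Over all RAG1 starts, H3K4me3 was 0.335, 0.336 and 0.291 in untreated Raji, 0.176, 0.741 and 0.669 in untreated NALM6, and 0.993, 0.793 and 0.951 in untreated REH. REH stood above Raji in each library, but RAG1 H3K4me3 did not pass (log2 difference 1.26, SE 0.52, limma with Benjamini-Hochberg, adjusted p = 0.120). At the distal window the highest signal of the H3K4me3 peaks was nearest the TRAF6 start in 6 of 6 Raji, 6 of 6 REH and 4 of 4 NALM6 libraries with a peak.

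At the principal RAG1 start (chr11:36567007-36569007 is the window) none of the 6 Raji libraries had H3K4me3 or H3K4me2. H3K4me3 there was 0.176, 0.447 and 0.299 in untreated NALM6, 0.190, 0.449 and 0.0503 in treated NALM6, 0.527, 0.402 and 0.357 in untreated REH, and 0.199, 0.426 and 0.441 in treated REH. Both leukaemia lines carried it within this window in every library, and their ranges overlapped. The highest signal of these peaks lay 1238 to 1318 bp from that start in REH and 21 to 1318 bp (median 1225 bp) in NALM6. The smallest overlap of such a peak with the window was 37 bp in NALM6 and 307 bp in REH. H3K4me2 at that window was called in 5 of 6 NALM6 and 6 of 6 REH libraries. This window was picked out after its values were seen, and it has no test of its own.

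Summed over its starts, RAG1 H3K4me2 passed against Raji for REH (log2 difference 2.14, SE 0.43, limma with Benjamini-Hochberg, adjusted p = 0.00157) and for NALM6 (1.85, SE 0.43, adjusted p = 0.00614). Untreated Raji libraries gave 0.305, 0 and 0.243, those of NALM6 0.412, 1.23 and 0.858, and those of REH 0.995, 1.02 and 0.865. Raji lay below both lines in every untreated library. The NALM6 value of 0.412, from replicate 1, came only from the distal window shared with TRAF6, with no peak at the principal RAG1 start. Both calls were lost when each library kept the same number of peaks (adjusted p = 0.0598 and 0.0763), and the NALM6 call also in a fit of only the 6 libraries compared (adjusted p = 0.223). TRAF6 itself gave 1.01 (SE 0.60, adjusted p = 0.327) for H3K4me2 in REH minus Raji and 1.25 (SE 0.60, adjusted p = 0.162) in NALM6 minus Raji.

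RAG2, the partner subunit of the recombinase, had H3K4me3 at its starts in 6 of 6 REH, 4 of 6 NALM6 and 0 of 6 Raji libraries. REH gave 0.518, 0.507 and 0.651 untreated and 0.425, 0.508 and 0.445 with bryostatin, and NALM6 0, 0.15 and 0.14 untreated and 0.123, 0.132 and 0 with bryostatin. REH exceeded NALM6 in each library (log2 difference 1.85, SE 0.36, limma with Benjamini-Hochberg, adjusted p = 0.00252) and Raji, listed at 0 (adjusted p = 3.01e-05). The call between REH and NALM6 was lost with the maximum signal (adjusted p = 0.15), with the same number of peaks per library (0.101) and with only the 6 libraries compared (0.123). The RAG2 start window nearest the IFTAP start, chr11:36593755-36595755, held H3K4me3 in REH alone, in 6 of 6 libraries.

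RAG2 H3K4me2 was 0.869, 1.01 and 0.422 in untreated REH and 0.884, 0.498 and 0.465 in treated REH. In NALM6 it was 0 in all 3 untreated libraries and 0, 0.229 and 0.268 in treated ones, and in Raji 0 throughout. RAG2 passed the filter for H3K4me2 only through REH, so no p is given for these differences. The values sum 2 start windows. The window nearest the IFTAP start held H3K4me2 in 6 of 6 REH libraries, with the highest signal nearest IFTAP in 5. The window of the principal RAG2 start held it in only 3 of 6 REH and 2 of 6 NALM6 libraries. A distal H3K4me2 region at chr11:36617281-36623820, centred at -22271 bp from the RAG2 5′ end, was called in 6 of 6 NALM6, 6 of 6 REH and 0 of 6 Raji libraries, with mean called lengths of 1922 bp and 3525 bp. H3K4me3 was called within it in only 1 REH library. This distal region has no test.

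**Figure D3:**
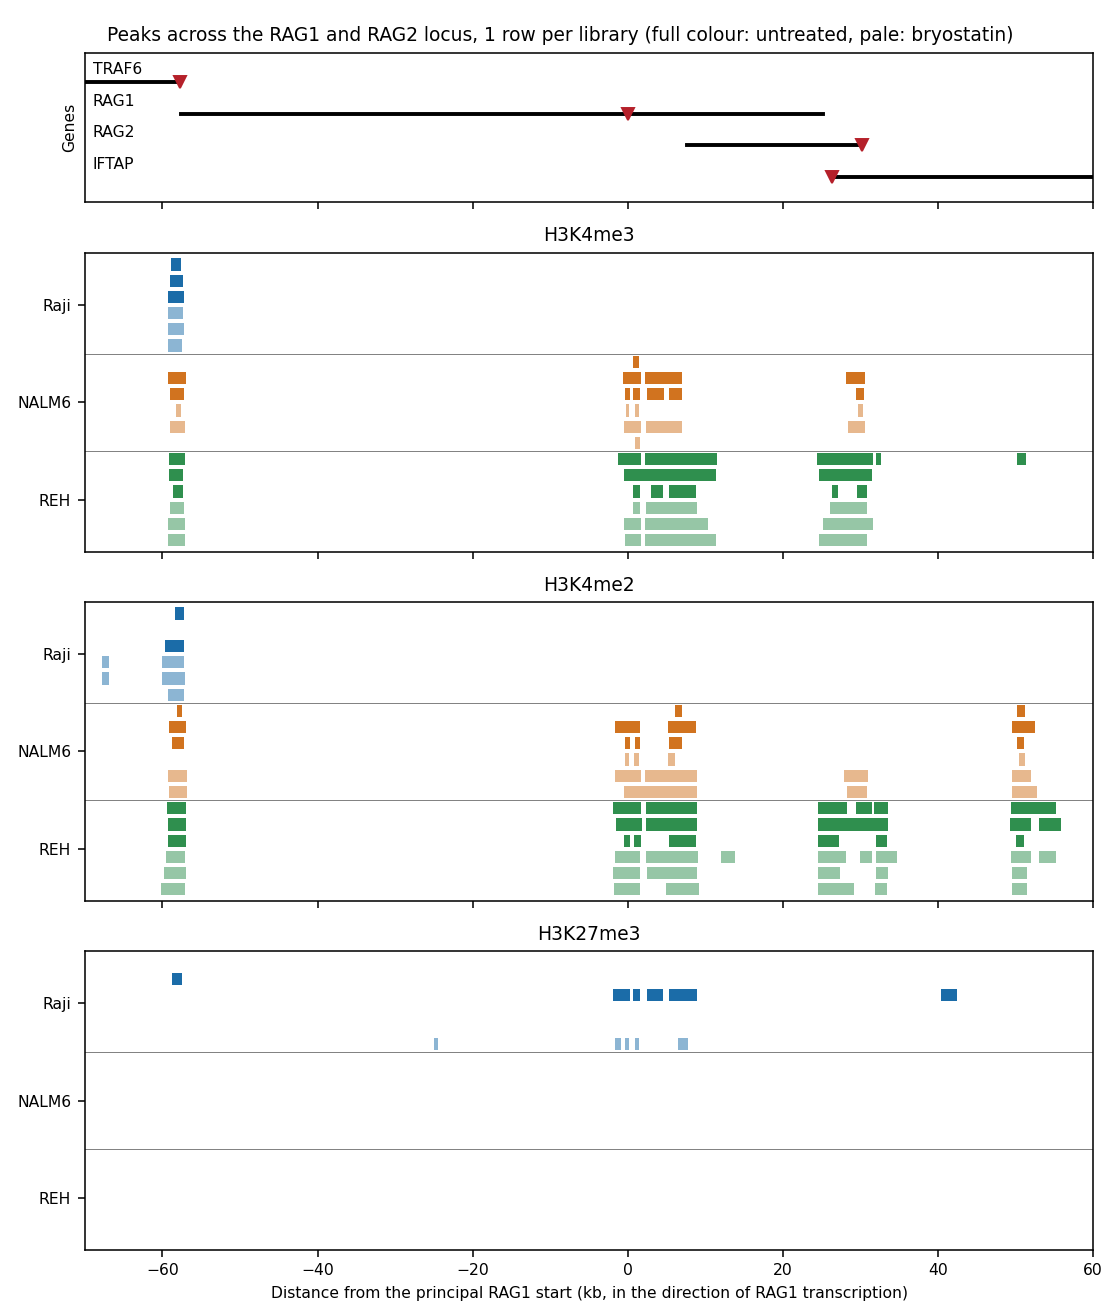
Called peaks of H3K4me3, H3K4me2 and H3K27me3 across RAG1 and RAG2, 1 row per library grouped by line (y axis), by distance in kb from the principal RAG1 start (x axis). The top panel gives the genes with triangles at their starts, and over the RAG1 and RAG2 starts Raji shows H3K4 peaks only at the distal start shared with TRAF6, 6 of 6 libraries for H3K4me3 and 5 of 6 for H3K4me2.

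DNTT, which adds untemplated bases at coding joints, had H3K4me3 in 6 of 6 REH, 5 of 6 NALM6 and 0 of 6 Raji libraries. REH values were 0.344, 0.346 and 0.587 untreated and 0.274, 0.317 and 0.352 with bryostatin, and NALM6 values 0.246, 0.197 and 0.194 untreated and 0.262, 0.210 and 0 with bryostatin. All stood below a typical start, and REH exceeded NALM6 in each untreated library. That comparison did not pass (log2 difference 0.72, SE 0.37, limma with Benjamini-Hochberg, adjusted p = 0.306). The adjusted p was 2.08e-04 for REH and 0.00540 for NALM6 against Raji, listed at 0, in limma with Benjamini-Hochberg adjustment. DNTT H3K4me2 was 0.609, 0.799 and 0.481 in untreated REH, against 0, 0.351 and 0 in untreated NALM6 and 0 in Raji. It was higher in REH than in Raji (adjusted p = 0.00197) and than in NALM6 (log2 difference 2.12, SE 0.59, adjusted p = 0.0199). The latter call was lost without untreated replicate 1 (adjusted p = 0.0571) or 2 (0.0762) of REH, without untreated replicate 1 (0.0895) or 3 (0.0672) of NALM6, and with only the 6 libraries compared (0.146). In REH the H3K4me2 peak over the DNTT start was 12030 to 18150 bp long, with its highest signal 6 to 6344 bp from that start (median 2822 bp). An upstream region, chr10:96266821-96274830, carried H3K4me2 in 6 Raji, 5 NALM6 and 6 REH libraries, and so was not a feature of either leukaemia line. It covers the end of the neighbour BLNK (chr10:96189171-96271587) that faces DNTT. BLNK had H3K4me2 start peaks in the same numbers of libraries.

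MME, the CD10 endopeptidase, carried H3K4me3 at its start in all 18 libraries. Untreated Raji gave 0.836, 1.09 and 1.09, untreated NALM6 2.38, 1.75 and 1.74, and untreated REH 1.35, 1.33 and 1.27. The lines did not overlap, with Raji lowest and NALM6 highest. NALM6 exceeded Raji by a log2 difference of 0.89 (SE 0.14, limma with Benjamini-Hochberg, adjusted p = 1.69e-04), and REH was below NALM6 by -0.52 (SE 0.14, adjusted p = 0.0232). REH against Raji did not pass (0.37, SE 0.14, adjusted p = 0.0808). The difference between REH and NALM6 was lost without any 1 of the 3 untreated REH libraries (adjusted p 0.0590, 0.0594 and 0.0873), without NALM6 untreated replicate 1 (0.0842) and with only the 6 libraries compared (0.141). For H3K4me2 no line comparison of MME passed. Untreated Raji libraries gave 1.40, 0.943 and 1.79, those of NALM6 0, 1.10 and 0.587, and those of REH 1.46, 1.32 and 0.698. An internal MME start, chr3:155111294-155113294, had H3K4me2 in 6 Raji, 5 REH and 0 NALM6 libraries and no H3K4me3 in any.

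CD34, the stem and progenitor cell sialomucin, had no H3K4me3 at any annotated start in 18 libraries and was not in the set tested for that mark. H3K4me2 appeared at an internal start in 3 of 6 REH libraries (0.264, 0.283 and 0.218) and 1 of 6 NALM6 libraries (0.474), and in none of Raji. In H3K4me2 CD34 passed no line comparison. Downstream of the gene, an H3K4me2 region at chr1:207871321-207875820 was called in 6 of 6 Raji libraries and in no NALM6 or REH library, while its neighbour at chr1:207866461-207869980 was called in all 6 libraries of every line.

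Counted over the tested members, REH exceeded Raji at 4 of 8 for H3K4me2 (IGLL1, RAG1, RAG2, DNTT) and at 3 of 6 for H3K4me3 (IGLL1, RAG2, DNTT), where VPREB1 was listed at 0 in both, with no member called lower. Of all genes tested, 22.1% were called for H3K4me2 (16% higher, 6.11% lower) and 17.6% for H3K4me3 (9.26% higher, 8.3% lower). NALM6 exceeded Raji at 3 of 7 for H3K4me2 (IGLL1, RAG1, VPREB1), where RAG2 was listed at 0 in both, and at 4 of 7 for H3K4me3 (VPREB1, IGLL1, DNTT, MME), against 21.3% of genes called (7.55% higher, 13.7% lower) and 17.5% (7.21% higher, 10.3% lower). REH and NALM6 differed at 3 members for H3K4me2 (DNTT and RAG2 higher in REH, VPREB1 lower) and at 3 for H3K4me3 (RAG2 higher, VPREB1 and MME lower), against 18.6% of genes called (16.4% higher, 2.14% lower) and 8.47% (5.72% higher, 2.75% lower). Untreated REH lay above untreated Raji without overlap at 5 of the 8 members past the filter for H3K4me2 and 6 of the 7 for H3K4me3, and below at none, against 28.1% of genes above and 20.7% below for H3K4me2 and 20.5% and 24.3% for H3K4me3. For NALM6 against Raji, 3 members lay above and 1 (VPREB3) below for H3K4me2, and 4 above and 1 (VPREB3) below for H3K4me3, against 9.36% of genes above and 22.6% below, and 12.7% and 27.8%. For REH against NALM6, 3 lay above and 1 below for H3K4me2 and 4 above and 2 below for H3K4me3, against 28.6% and 5.49%, and 18.8% and 9.64%. VPREB1 for H3K4me3 and RAG2 for H3K4me2 passed the filter of a peak in at least 3 of 18 libraries only through the line where they were high, and other members partly so, hence these counts are descriptions of the members named. The median log2 difference of all genes was 0.04, -0.45 and 0.64 for H3K4me2 and -0.06, -0.25 and 0.10 for H3K4me3, in the order REH minus Raji, NALM6 minus Raji and REH minus NALM6. With quantile normalization these medians were -0.18, -0.04 and -0.08 for H3K4me2 and -0.07, -0.04 and -0.08 for H3K4me3, and the called members with peaks in both lines kept their direction. The split of all called genes moved with it, from 2066 higher and 789 lower to 2113 and 2059 for H3K4me2 in REH minus Raji, from 976 and 1773 to 1545 and 1570 in NALM6 minus Raji, and from 2121 and 277 to 1234 and 921 in REH minus NALM6. For H3K4me3 it moved from 851 and 1218 to 1600 and 1498 in NALM6 minus Raji and from 675 and 325 to 987 and 1023 in REH minus NALM6.

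The other genes of early B cell development and of V(D)J recombination are described beside these members. Those lists were chosen with earlier results of these data known. Of 14 early B and progenitor genes, 12 were tested for H3K4me3. In REH against Raji, 6 were called higher (ARPP21, CD24, ERG, FLT3, LEF1, SOX4) and none lower, against 9.26% and 8.3% of all genes. ARPP21, ERG, FLT3 and LEF1 had no H3K4me3 start peak in any Raji library. FLT3 had none in NALM6 either and passed the filter of a peak in at least 3 of 18 libraries only through REH. Its call is therefore no support, and the count is a description of the genes named. In NALM6 against Raji, 5 were called higher (ARPP21, CD24, CD9, LEF1, SOX4) and none lower, against 7.21% and 10.3% of all genes. For H3K4me2, 6 of 13 were higher in REH and 3 in NALM6, against 16% and 7.55% of all genes. In NALM6 SOX4 was lower for H3K4me2 (log2 difference -1.89, SE 0.37, limma with Benjamini-Hochberg, adjusted p = 0.00159), as were 13.7% of all genes. SOX4 H3K4me3 went the other way in NALM6 (1.58, SE 0.21, adjusted p = 4.00e-05). KIT and FLT3, receptors of progenitor cells, had no H3K4me3 start peak in any Raji or NALM6 library. The V(D)J list held 10 genes: DCLRE1C, LIG4, XRCC4, XRCC5, XRCC6, NHEJ1, POLM, POLL, HMGB1 and HMGB2. None was called higher and 2 were lower in REH than in Raji for each H3K4 mark. Of all genes tested in that comparison, 6.11% were lower for H3K4me2 and 8.3% for H3K4me3. All 10 had H3K4me3 start peaks in every Raji library.

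H3K27me3 was rare at the members and was described by called length over the gene body with 3 kb flanks, with no test, since its libraries differed greatly in what was called. In Raji the share of genes with an H3K27me3 start peak ran from 1.39% to 57.1% between libraries, in NALM6 from 0.965% to 24.2% and in REH from 10.7% to 18.7%. CD34 had the most: 0, 14092 and 9040 bp in untreated NALM6 and 0, 16322 and 4132 bp in treated NALM6, with the 0 values in the replicate 1 libraries. In Raji it had 0, 3000 and 5062 bp untreated and 0, 0 and 3752 bp treated, and in REH none. RAG1 had 0, 1310 and 8690 bp in untreated Raji and 3550 bp in 1 treated Raji library. IGLL1 had 3520 and 2896 bp in 2 untreated Raji libraries and 2830 bp in 1 treated library. RAG2, DNTT, VPREB3 and MME had H3K27me3 in 1 or 2 Raji libraries each, VPREB1 in none. No member had H3K27me3 in any REH library, and only CD34 had it in NALM6. The Raji peaks came from untreated replicates 2 and 3 and treated replicate 3, the Raji libraries with the highest genome-wide shares (57.1%, 27.4% and 28.1%), whose part in these peaks was not tested.

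**Figure D4:**
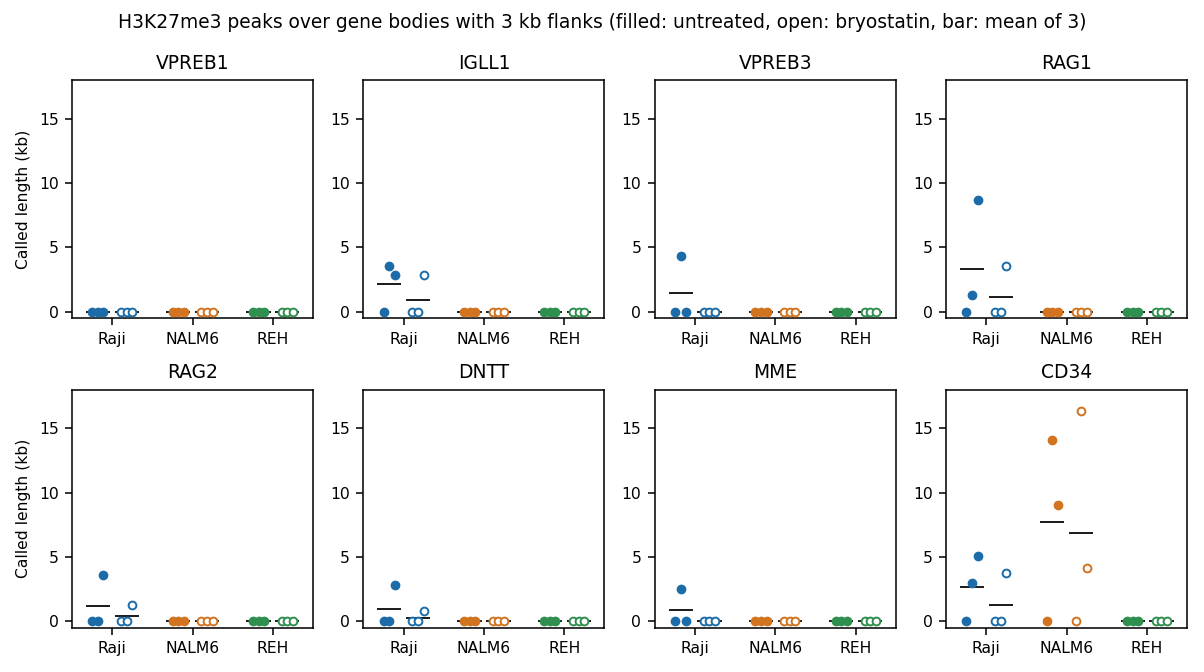
Length of called H3K27me3 peaks in kb (y axis) over each gene body with 3 kb flanks by line (x axis), 1 point per library, filled for untreated and open for bryostatin, with a bar at the mean of 3. CD34 in NALM6 reaches 16322 bp, the longest value, and REH stays at 0 for all 8 genes.

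The H3K4me3 peak signal allotted to the VPREB3 start fell with bryostatin in REH. The untreated libraries gave 0.861, 0.817 and 0.833 and the treated ones 0.399, 0.379 and 0.413, so that the mean went from 0.837 ± 0.0221 to 0.397 ± 0.0170 (SD, n = 3 each). The groups lay far apart, and VPREB3 ranked 1 by p among 8232 genes (log2 change -1.08, SE 0.10, limma with Benjamini-Hochberg, adjusted p = 0.00363), of which 0.0607% were called (0.0364% higher, 0.0243% lower). Called length within the window overlapped between the groups, at 2017, 1752 and 1432 bp untreated and 1382, 1212 and 1612 bp treated. The call was lost with the maximum signal of the peak, read near ZNF70 (-0.46, adjusted p = 0.518), and with the mean signal per called base, a measure added after seeing the data (-0.73, adjusted p = 0.0811). At the ZNF70 start the change was -0.68 (SE 0.11, adjusted p = 0.0727).

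In Raji the allotted H3K4me3 was also lower with bryostatin, with no overlap between groups but no call, and with the maximum signal the direction turned (log2 change 0.10). VPREB3 gave 0.529, 0.740 and 0.674 untreated and 0.304, 0.439 and 0.404 treated (log2 change -0.77, SE 0.17, limma with Benjamini-Hochberg, adjusted p = 0.546). Blocking on the replicate number gave an adjusted p of 0.0508. The difference of the effect between REH and Raji did not pass (-0.31, adjusted p = 1.00). No gene of the 9890 tested in Raji was called for H3K4me3, with 330 at an unadjusted p under 0.05. In NALM6 VPREB3 had peaks in 4 of 6 libraries and was not tested.

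No other member was called in REH with the main settings, though more were called over merged peak regions. IGLL1 H3K4me3 was 0.776, 0.820 and 1.12 untreated and 0.456, 0.513 and 0.519 treated, without overlap (log2 change -0.85, SE 0.15, limma with Benjamini-Hochberg, adjusted p = 0.105). Under 2 alternatives IGLL1 was called lower, over the gene body with 3 kb flanks (-0.72, adjusted p = 0.0167) and over merged peak regions (-0.73, adjusted p = 0.00313). MME H3K4me3 was 1.35, 1.33 and 1.27 untreated and 1.06, 1.15 and 1.15 treated, again without overlap (-0.24, SE 0.08, adjusted p = 0.857). RAG1, RAG2 and DNTT overlapped between groups. The overlap was narrow for RAG2, with 0.507 the lowest untreated and 0.508 the highest treated value, and for DNTT, with 0.344 and 0.352. In all, 3 of 6 tested members lay lower without overlap in REH H3K4me3 and none higher, against 6.01% and 5.94% of all genes tested. In Raji 1 of 3 lay lower and none higher, against 3.7% and 5.3%. The overlap of members was read on the scaled values printed here. The shares of all genes used log2 signal centred on genes called in all 6 libraries of the line, here and in the treatment comparisons below. Counts and shares thus rest on unlike scalings.

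**Figure D5:**
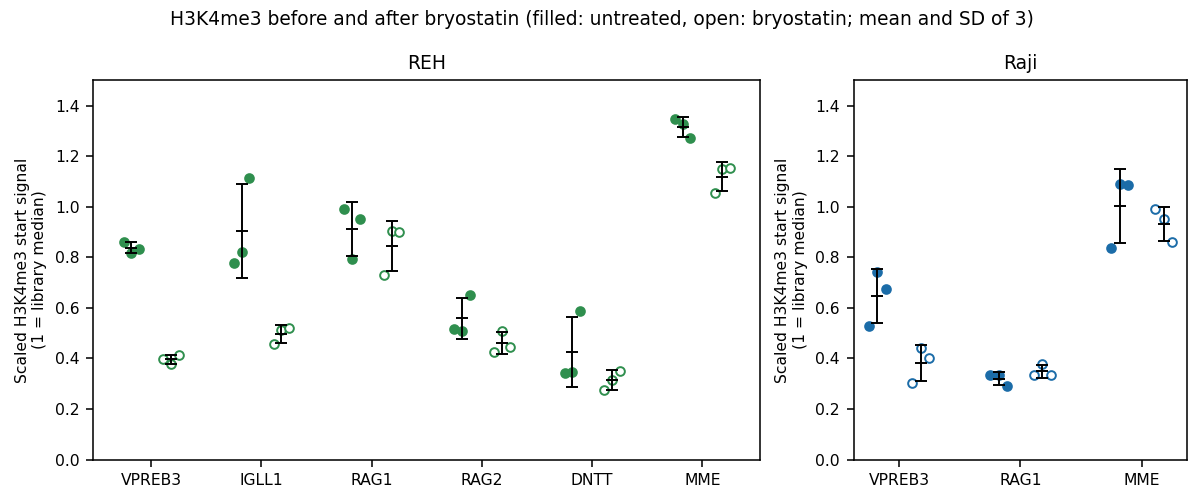
Scaled H3K4me3 start signal (y axis, 1 = the library's median start) of the members tested in REH and Raji (x axis), 1 point per library, filled for untreated and open for bryostatin, with the mean and SD of 3. VPREB3 in REH drops from a mean of 0.837 to 0.397, the 1 member call of the treatment comparisons.

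No member was called for H3K4me2 with bryostatin. In REH, VPREB3 was 1.48, 1.46 and 1.65 untreated and 1.33, 1.18 and 1.32 treated (log2 change -0.28, SE 0.10, limma with Benjamini-Hochberg, adjusted p = 0.716), and RAG1 was 0.995, 1.02 and 0.865 untreated and 1.30, 1.21 and 1.05 treated (0.29, SE 0.11, adjusted p = 0.716). With the maximum signal the VPREB3 change turned to 0.010. Neither gene's groups overlapped, against 5.75% of genes lower and 6.4% higher without overlap. Of 9790 genes tested in REH for H3K4me2, 0.0817% were called (0.0715% higher, 0.0102% lower), and no member was among them. In NALM6, IGLL1 and RAG1 were tested for H3K4me2 and VPREB1, IGLL1, RAG1 and MME for H3K4me3. None was called, and each overlapped between groups, against 4.59% of genes higher and 4.23% lower without overlap for H3K4me2 and 2.05% and 2.78% for H3K4me3. In Raji, MME and VPREB3 were tested for H3K4me2 and both overlapped, against 4.88% of genes higher and 6.22% lower. No gene at all was called in NALM6, with 55 for H3K4me2 and 18 for H3K4me3 at an unadjusted p under 0.05, and on data simulated with a log2 change of 1 the NALM6 comparisons recovered 0% of changed genes, against 89% in REH.

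The genes most like each member across the 18 libraries of a mark were named by Pearson's r of the log2 start signal, as a description over libraries that share lines, treatments and scaling. For VPREB1 H3K4me3 they were STC2 (r = 0.998) and PTGER2 (0.997), and for IGLL1 FADS2 (0.985) and DUSP6 (0.983). For RAG2 H3K4me3 they were ZNF703 (0.995) and IDUA (0.992), and for DNTT FAM131A (0.990) and TGFBR3L (0.986). No member was the best match of another. The closest member pairs were VPREB3 with MME (0.924), IGLL1 with RAG1 (0.917) and RAG2 with DNTT (0.913), all in H3K4me2, while RAG1 with RAG2 gave 0.830 in H3K4me3. In the NALM6 replicate 1 libraries, which carried the other scaling, VPREB3 H3K4me2 was 0.0889 untreated and 0 treated, and MME had no peak. These were the lowest values of both genes, and their part in the r of 0.924 was not tested.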

How the data were processed

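Cut&Tag peaks of H3K4me2, H3K4me3 and H3K27me3 were taken as deposited. The authors trimmed reads with Trim Galore, aligned them to hg38 with Bowtie2, normalized coverage to RPKM and ran SEACR on each library by itself. Tool versions are not given in the sources used here. The deposited signal values are, per peak, the total signal and the maximum signal. In 6 NALM6 replicate 1 libraries the signal followed another scaling. From these the summed signal within 1 kb of GENCODE 44 starts was computed, each peak's signal being shared evenly over its length. For line comparisons, and for all values printed, it was scaled to the library median over genes called in all 18 libraries of the mark. For treatment comparisons the log2 signal was instead centred on the library median over genes called in all 6 libraries of the line and mark. Both were tested with limma 3.58.1 (R 4.3.3, trend) and Benjamini-Hochberg adjustment over all genes tested at 0.05. Lines were compared on log2(signal + 0.1), which understates changes of low values, for genes with a peak in at least 3 libraries. Groups listed at 0 throughout add no spread to the estimate that all groups share. Treatments were compared within a line on genes called in all 6 libraries. Data were handled with Python 3.11.15 and pandas 2.3.3.

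The members and lists were chosen with earlier results of these data known. Named genes were the 8 members, the early B, joining, mature B and T cell lists, neighbours within 50 kb, and the 2 genes of highest correlation per member and mark. Another marker list is not reported here. The fits were tested on simulated data. At a log2 difference of 2, 50% of changed genes were recovered for H3K4me2 in REH minus Raji. Same-numbered untreated and treated libraries deviated together in NALM6 (r from 0.31 to 0.68 over both H3K4 marks) and in Raji H3K4me3 (0.19 to 0.46), and not in Raji H3K4me2 or REH. Alternatives were the peak measure, scaling, pseudocount, filter, window, peak number, libraries in the fit, a replicate block, merged peak regions and each library left out in turn.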

Additional observations from a re-analysis of the deposited data

How the results depend on the processing

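Counts of members past the adjusted p of limma moved under some settings, and the cause was not tested. For H3K4me2, NALM6 against Raji went from 3 to 5 over gene bodies with 3 kb flanks and to 1 in a fit of only the 6 libraries compared, and REH against NALM6 from 3 to between 1 and 3 as each library was left out. For H3K4me3, REH against Raji went from 3 to 5 with quantile normalization and over gene bodies, NALM6 against Raji from 4 to 7 with quantile normalization (VPREB3 among the added, lower in NALM6), and REH against NALM6 from 3 to 5 over gene bodies, to 5 with the same number of peaks per library and to 1 with only 6 libraries. In REH with bryostatin the count for H3K4me3 was 1, and it was 0 with the maximum signal, 2 over gene bodies, 0 with the mean signal per called base, which was chosen after seeing the data, and 4 over merged peak regions. With the maximum signal, the VPREB3 change turned to 0.010 in REH H3K4me2 and to 0.10 in Raji H3K4me3. VPREB3 H3K4me3 in REH stayed between -1.11 and -1.05 on the log2 scale as each library was left out, with adjusted p up to 0.0479. Of 275 log2 values of members recomputed under an alternative, 227 kept direction and side of the threshold.

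Replicate numbers in REH H3K4me3 did not pair the libraries (r from -0.15 to 0.05). With that number as a blocking term, 0 members and 0 genes were called there, against 1 and 5 without it (VPREB3 adjusted p = 0.0771), and REH against NALM6 for H3K4me3 gave 4 members in place of 3. In Raji H3K4me3, whose numbers do pair, the block took the called genes from 0 to 9 and called no member. It changed no other count of members.

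Called peaks set the limit: a mark below a library's weakest peak is listed at 0, the lowest shares of genes with a start peak, for either H3K4 mark, were in NALM6 libraries, and 3 against 3 libraries found no change in NALM6 on simulated data at a log2 change of 1.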
